A study of Homo sapiens with 2 samples.

Results

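The Polycomb repressive complex genes followed here are EZH1, EZH2, SUZ12, EED, BMI1, RING1, CBX2, CBX7 and CBX8, chosen by name from the array's gene annotation. Of these 9 genes, 7 had a probe set of their own, out of 18417 genes measured in that way. BMI1 was read only by a probe set that the annotation also gives to COMMD3-BMI1, a readthrough transcript that runs from the upstream gene COMMD3 into BMI1. No probe set of CBX8 was analysed here. Expression was measured in H1299, an established line of human non-small cell lung cancer with no p53 of its own. The 2 groups, with 1 Affymetrix array each, were H1299 cells with p53 and H1299 cells of a negative control. How p53 was supplied, for how long, and what the control received are not stated in the labels. Every difference is the log2 intensity with p53 minus that in the negative control. With no replicates it carries no error and no test, so "higher" and "lower" describe these 2 arrays.

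Polycomb proteins keep genes silent through chromatin and work in 2 kinds of complex. Polycomb repressive complex 2 (PRC2) methylates histone H3. EZH2 or its paralogue EZH1 is the catalytic subunit, and both need EED and SUZ12 to be active. EZH2 is typical of dividing cells and EZH1 also of resting ones. Polycomb repressive complex 1 (PRC1) carries a ubiquitin ligase made of RING1 or its paralogue with a PCGF protein such as BMI1. In its canonical form a CBX protein, among them CBX2, CBX7 and CBX8, reads the methyl mark laid down by PRC2.

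The promoters of the PRC2 core genes are shown because the differences of these genes ran in opposite directions, EZH2 and SUZ12 lower with p53 and EZH1 and EED higher. RefSeq windows (GRCh38.p14) were read from 250 bases before to 30 bases after the annotated start, 5′ to 3′ on the gene's strand. Capitals mark matches, on either strand, to the E2F letters TTTCCCGC, TTTCGCGC, TTTGCCGC or TTTGGCGC, to the letters TTTGAA or TTCGAA of the cell cycle homology region (CHR), or to CCAAT. None of the marked matches overlaps another.
EZH2, chr7:148884262-148884541, minus strand: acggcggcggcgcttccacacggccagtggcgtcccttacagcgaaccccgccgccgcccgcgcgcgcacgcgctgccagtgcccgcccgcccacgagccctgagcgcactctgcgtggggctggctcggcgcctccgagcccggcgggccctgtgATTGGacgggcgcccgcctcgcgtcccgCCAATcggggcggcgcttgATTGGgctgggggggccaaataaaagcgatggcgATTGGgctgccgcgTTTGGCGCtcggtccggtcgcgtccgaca
SUZ12, chr17:31936757-31937036, plus strand: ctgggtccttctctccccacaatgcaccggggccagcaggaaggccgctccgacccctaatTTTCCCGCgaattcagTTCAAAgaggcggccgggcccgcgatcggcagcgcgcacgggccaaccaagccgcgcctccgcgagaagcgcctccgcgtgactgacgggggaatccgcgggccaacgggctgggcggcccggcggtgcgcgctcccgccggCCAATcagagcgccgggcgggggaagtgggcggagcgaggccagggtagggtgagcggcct
EZH1, chr17:42745011-42745290, minus strand: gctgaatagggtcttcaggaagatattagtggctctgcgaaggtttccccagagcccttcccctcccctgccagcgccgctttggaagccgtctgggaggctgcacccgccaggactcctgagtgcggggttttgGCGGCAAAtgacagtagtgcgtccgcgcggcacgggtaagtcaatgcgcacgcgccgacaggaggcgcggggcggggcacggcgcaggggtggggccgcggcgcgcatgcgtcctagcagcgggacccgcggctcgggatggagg
EED, chr11:86244503-86244782, plus strand: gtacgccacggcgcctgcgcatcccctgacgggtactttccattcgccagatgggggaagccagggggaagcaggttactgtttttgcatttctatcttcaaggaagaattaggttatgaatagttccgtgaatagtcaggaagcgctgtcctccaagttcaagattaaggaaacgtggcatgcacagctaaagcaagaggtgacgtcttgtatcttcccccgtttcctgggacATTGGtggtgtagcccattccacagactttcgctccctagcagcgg

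EZH2 held TTTGGCGC from base 2 to base 9 of the transcript, counted from 1 at the annotated start, and 4 CCAAT matches before the start. SUZ12 held TTTCCCGC beginning 189 bases before the start, a CHR match beginning 173 bases before it and 1 CCAAT match. EZH1 held TTTGCCGC on the opposite strand, beginning 115 bases before the start, and EED held none of the E2F or CHR letters and 1 CCAAT match. Within the PRC2 core, an E2F match thus occurred in both lower genes and also in EZH1, which was higher. Among all 35116 RefSeq windows of this length, 3.14% held an E2F match, 15.6% a CHR match and 33.7% a CCAAT match. Of the 9 genes, 7 had a window in the table. RING1 and both windows of BMI1 held no match of any kind. The probe sets of RING1 and the shared probe set of BMI1 also read lower with p53. CBX7 held 1 CCAAT match, and a downstream window of EZH2 held none. These matches describe letters only, and binding was not measured.

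EZH2 was the 1 gene of the 7 whose own probe set differed at least 2-fold. Its log2 intensity was 9.42 with p53 against 10.54 in the negative control, a difference of -1.11, or 2.16-fold lower. EZH1 went the other way, at 8.90 with p53 and 8.26 in the control, 1.56-fold higher (0.64). The difference of EZH2 was 1.76 below that of EZH1 on the log2 scale, so the ratio of the EZH2 to the EZH1 signal was 3.38-fold lower in the p53 array. The probe sets' levels were not compared with each other, since probes differ in brightness for equal amounts of RNA. RNA came from whole cultures, in which fewer cells with a transcript and less transcript per cell cannot be told apart.

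The partners of the EZH enzymes were split in the same manner. EED, the subunit that binds the methyl mark and stimulates the enzyme, read 10.07 with p53 and 9.39 in the control, 1.60-fold higher (0.68). SUZ12, the scaffold that joins the core to its accessory subunits, stood at 10.09 and 10.56, 1.38-fold lower (-0.46). SUZ12P1, a transcribed pseudogene of SUZ12 with a probe set of its own, stood at 9.24 and 9.41 (-0.17). How much of the SUZ12 signal comes from the pseudogene was not tested.

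**Figure D1:**
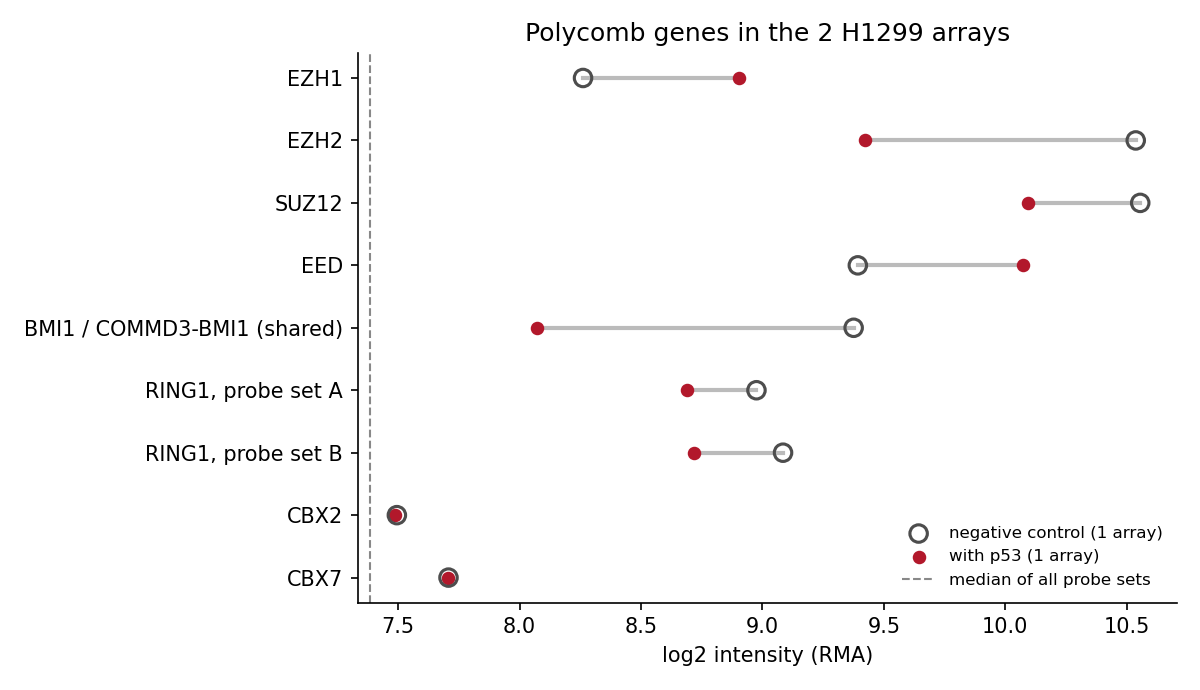
Log2 intensity (RMA) of each probe set of the Polycomb genes, with p53 as filled red points and in the negative control as open circles, 1 array each. EZH2, SUZ12, RING1 and the probe set shared by BMI1 and COMMD3-BMI1 lie lower with p53, EZH1 and EED lie higher, and the points of CBX2 and CBX7 coincide just above the median of all probe sets (dashed line, 7.38).

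Among the PRC1 genes the lowest value came from the shared BMI1 probe set. BMI1, a PCGF protein that activates the RING1 ligase, is read there together with COMMD3-BMI1, and the probe set read 8.07 with p53 and 9.38 in the control, 2.47-fold lower (-1.30). The probe set shared by COMMD3 and COMMD3-BMI1, which reads the upstream part of the same readthrough, stood at 9.17 and 8.94, a difference of 0.23 in the other direction. How much of either signal is the readthrough cannot be told from these probe sets.

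RING1, the ligase subunit, had 2 probe sets. The brighter read 8.72 with p53 and 9.08 in the control (-0.37) and the other at 8.69 and 8.98 (-0.29). The annotation gives them nearly the same transcripts, so they are not separate measurements of the gene. Both were lower with p53 by less than 1.5-fold.

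CBX2 and CBX7, the measured mark-reading paralogues among the 9 genes, did not follow EZH2. CBX2 had 7.49 with p53 and 7.49 in the control, a difference of -0.0086. CBX7 was listed at 7.71 in both arrays. Both lay close to 7.38, the median of all probe sets, at levels where a probe set may read little specific signal. An equal value in both arrays was found for 15.1% of the 11103 genes whose mean over the 2 arrays was at or above that median. The equality of CBX7 was thus not unusual. Why values are equal was not tested, so this tie alone does not show that its RNA was unchanged. CBX6, a further Polycomb CBX gene, read 8.42 with p53 and 9.20 in the control, 1.72-fold lower (-0.78). The 3 Polycomb CBX genes measured thus spanned 0.78, less than the 1.76 between EZH2 and EZH1.

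Counts were read against all genes of the same arrays. Of the 7 genes with their own probe set, 1 was at least 2-fold lower and 0 reached 2-fold higher. Over all 18417 genes, 3.7% were at least 2-fold lower and 5.22% at least 2-fold higher. Among the 11103 genes with a mean at or above the median level, where all 7 lie, the shares were 5.67% and 7.7%. At 1.5-fold, 1 of the 7 was lower and 2 were higher, against 10.1% and 9.4% of all genes and 15.3% and 13.7% of the genes above the median level. The median difference of the 7 was -0.0086, beside 0.00 for all genes and -0.0079 for those above the median level. With only 7 genes, a count of 1 is too small to be told apart from these shares or to be matched to them. The median of the 7 lay close to the medians beside it. The shared BMI1 probe set is not among the 7. Counting it, a choice made after the data were seen, gave 2 genes at least 2-fold lower and a median of -0.19.

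Single genes differed in how far out they lay. A difference at least as low as that of EZH2 was found in 4.23% of the genes above the median level, and one as low as that of the shared BMI1 probe set in 2.65%. For EED and EZH1, 11.9% and 12.7% of these genes were at least as high. SUZ12 and RING1 were well inside the bulk, with 20.1% and 24.9% of genes at least as low. The median size of the difference over the same genes was 0.28, which SUZ12 and RING1 exceeded and CBX2 and CBX7 did not.

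**Figure D2:**
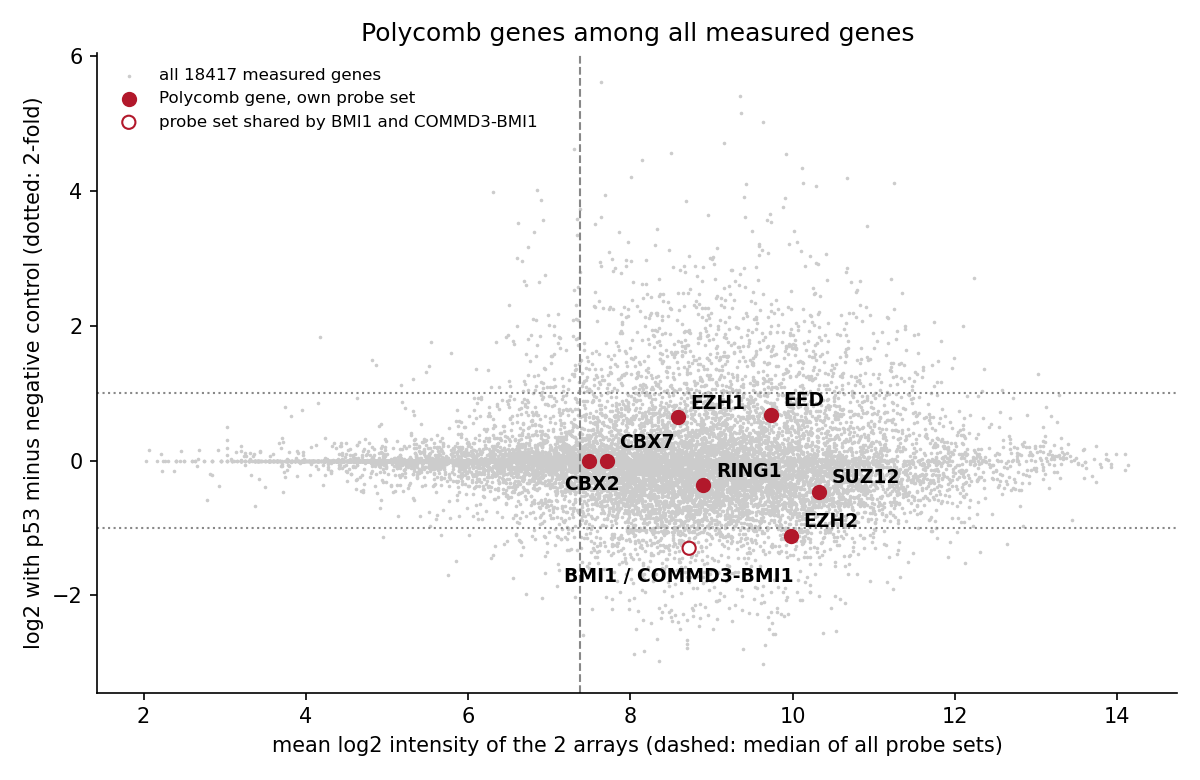
Difference between the arrays (log2 with p53 minus negative control) against the mean log2 intensity of the 2 arrays for all 18417 measured genes in grey, with the Polycomb genes in red and the probe set shared by BMI1 and COMMD3-BMI1 as an open circle. EZH2 (-1.11) and the shared probe set (-1.30) lie below the lower dotted line, which marks 2-fold, while EZH1 (0.64) and EED (0.68) lie below the upper one.

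Genes of cell division were also lower in the p53 array. Of 10 proliferation genes, a list added after the data were seen, 9 were at least 2-fold lower, against 3.7% of all genes. PCNA, the sliding clamp of DNA replication, was 1.63-fold higher. The median difference of the 10 was -2.01. MKI67, a marker of cycling cells, stood at 8.27 with p53 against 10.49 in the control. EZH2 was lower by less than any of those 9 genes, which ran from -2.22 to -1.51. The part of this shift in the EZH2 value was not tested. CDKN1A and MDM2, textbook targets of p53, were higher in the array labelled p53, at 3.49 and 2.71.

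With 2 arrays the pattern of a gene is a single difference, so many genes resemble EZH2. Among 11435 other genes with the brighter array at or above the median level, 251 lay within 0.1 of its difference. The 5 nearest were GOLPH3L, YEATS4, SLC18B1, LMNB2, which encodes the nuclear lamina protein lamin B2, and ZNF273. Each had a difference of -1.11 and a gap to EZH2 of at most 0.0033. SLC18B1 passed the filter through the control array alone, at 6.54 with p53 and 7.66 in the control.

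The further PRC2 genes, which are accessory subunits together with RBBP4 and RBBP7, contained a wider split than EZH1, EZH2, EED and SUZ12. Of 10 such genes, 1 was at least 2-fold higher and 1 at least 2-fold lower, with a median of -0.11. Over all genes, 5.22% were at least 2-fold higher and 3.7% at least 2-fold lower, and above the median level 7.7% and 5.67%. The Polycomb-like genes PHF1, MTF2 and PHF19 encode related subunits that help to bring PRC2 to its sites. PHF19 read 8.89 with p53 and 10.66 in the control, 3.42-fold lower (-1.77). MTF2 stood at 9.004 with p53, 1.99-fold lower than in the control (-0.996). PHF1 stood at 10.98 and 9.43, 2.93-fold higher (1.55). The span from PHF19 to PHF1, 3.32 on the log2 scale, was larger than that from EZH2 to EZH1. RBBP7, a histone-binding subunit, was 1.55-fold lower, at 11.65 against 12.28. Its paralogue RBBP4, named after its value was seen, stood at 11.75 and 11.78 (-0.02), and at 0.05 with an intensity trend removed.

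Paralogues of BMI1 and other PRC1 subunits were divided as well. Among the PCGF genes, which define the kinds of PRC1, PCGF3 read 11.98 with p53 and 9.67 in the control, 4.98-fold higher (2.32). The others differed less, with PCGF5 at 0.18, PCGF1 at -0.015, PCGF2 at -0.27 and PCGF6 at -0.51. PCGF1 was 0.06 with an intensity trend removed, so it has no direction. PCGF6 had another probe set, at -0.07. KDM2B, the CpG island-binding subunit of a variant PRC1, stood at 9.42 and 7.85, 2.96-fold higher (1.57). E2F6, a repressor of the E2F family found in a variant PRC1, was 1.74-fold lower, and YAF2, a RING1-binding subunit, 1.51-fold lower. Over the variant PRC1 list, 2 of 15 genes reached 2-fold higher and 0 reached 2-fold lower, and the median was 0.00. The shares of all genes were 5.22% and 3.7%, and of those above the median level 7.7% and 5.67%.

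In the list of canonical PRC1 subunits, 2 of 7 measured genes were at least 2-fold lower and 0 were higher, with a median of -0.33. Among all genes 3.7% were at least 2-fold lower and 5.22% higher, and above the median level 5.67% and 7.7%. SCMH1, a Sex comb on midleg homologue, read 8.67 with p53 and 9.80 in the control, 2.18-fold lower, and its relative SCML2 stood at 7.50 and 8.57, 2.11-fold lower. SCML2 was at -0.96, less than 2-fold, with an offset of 32 before the log. PHC1, a polyhomeotic subunit that joins PRC1 complexes into larger assemblies, stood at 11.54 and 10.71, 1.78-fold higher, and its other probe set gave 0.84.

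Enzymes that remove Polycomb marks, and their partners, went both ways. Of 8 measured genes, 4 were above 0 and 3 below, 1 was at least 2-fold lower and 0 were higher, with a median of 0.05. ASXL1, a partner of the H2A deubiquitinase, read 8.90 with p53 and 10.07 in the control, 2.25-fold lower. FOXK1, a forkhead factor bound by the same complex, was 1.61-fold higher. The H3 demethylase genes KDM6A (0.55) and KDM6B (0.25) and the H2A deubiquitinase gene USP16 (-0.52), named after their values were seen, differed by less than 1.5-fold. Over these 4 Polycomb lists, 40 of 43 genes were measured. Of these, 3 were at least 2-fold higher and 4 at least 2-fold lower, with a median of -0.0075. Beside these counts, 5.22% of all genes were at least 2-fold higher and 3.7% lower, and above the median level 7.7% and 5.67%.

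**Figure D3:**
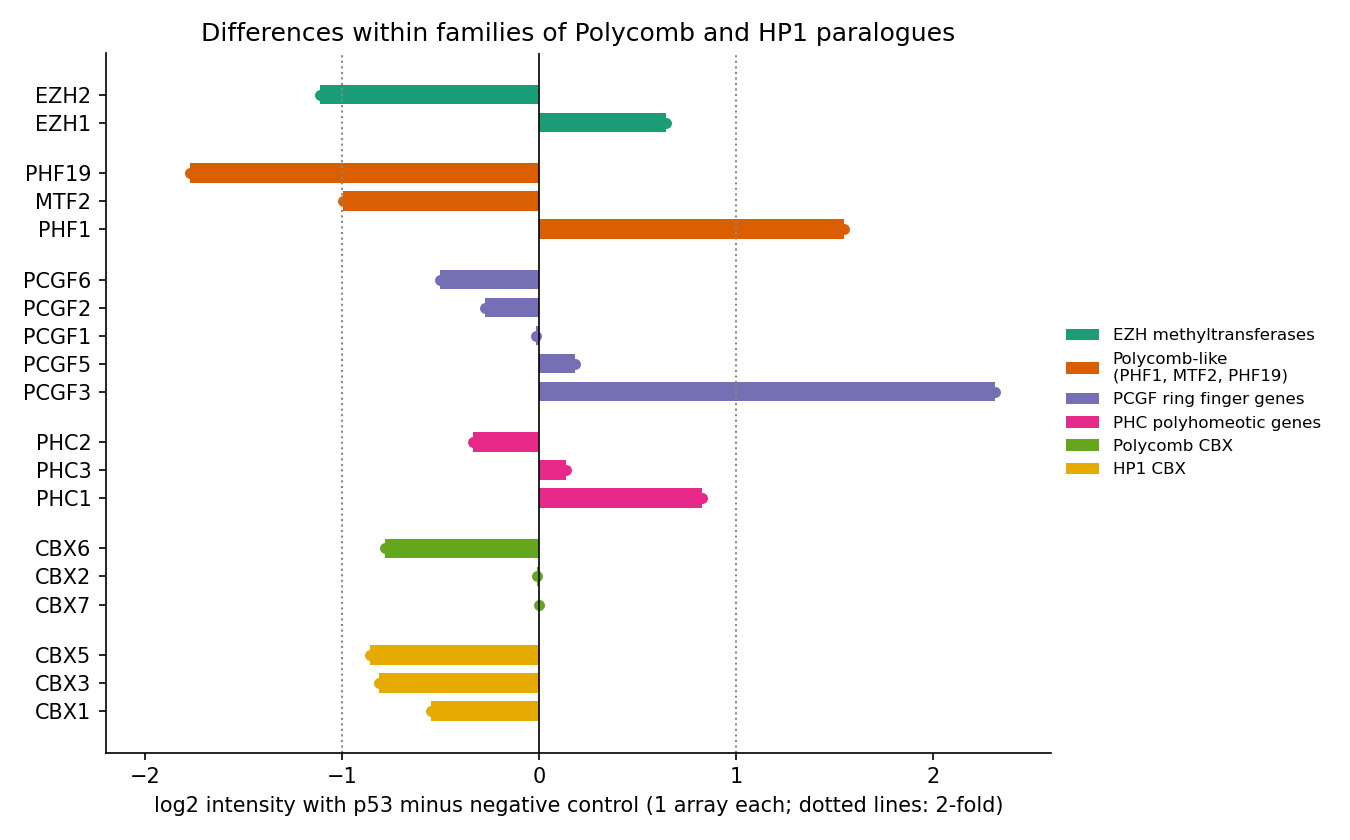
Differences (log2 intensity with p53 minus negative control, 1 array each) of genes in 5 Polycomb families and the HP1 family, with dotted lines at 2-fold. EZH2 and PHF19 extend below the lower line and PHF1 and PCGF3 above the upper one, within families whose other genes lie on the other side of 0 or nearer to it. The HP1 genes lie between -0.86 and -0.55.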

How the data were processed

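RNA was extracted from H1299 cells with Trizol and biotin-labelled, per the labels, and read on 1 Affymetrix array per group. The authors deposited 1 log2 value per probe set and array, made with RMA, per the submitters' processing notes. RMA makes the distributions of arrays alike, so a change in total RNA per cell is not visible. The log2 scale was read from the values (1.41 to 14.68). For software, version and genome build, nothing is given in the sources used here. An array gives no counts, and 1 array per group limits the precision.

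Of 33297 probe sets, GEO's platform annotation gives 19460 a single symbol, 1754 several and 12083 none here. Symbols were updated by gene identifier through RefSeq. For a gene with several probe sets the brightest was used. Differences of at least 2-fold, a rule of size, were counted, and 1.5-fold counts are given beside them. The level filter was the median of all values, 7.38.

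The genes and lists were chosen with earlier results of these data known. Named genes were the 9 genes with every probe set, their CBX and PCGF paralogues, list genes at least 1.5-fold different (up to 6 per list), the 5 genes nearest to EZH2, CDKN1A and MDM2. The functions were tested on simulated data. The transcript of the supplied gene is not reported here. Alternatives were centring, lowess (span 0.3), quantile normalization, an offset of 32, other probe set rules, a filter and thresholds of 1.5-fold and 3-fold. Python 3.11.15, numpy 2.4.6, pandas 2.3.3, statsmodels 0.14.6 and matplotlib 3.10.9 were used.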

Additional observations from a re-analysis of the deposited data

How the results depend on the processing

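Under removal of a lowess trend, quantile normalization and an offset of 32, EZH2 stayed at least 2-fold lower (-1.096 to -1.02) and the difference of EZH2 minus EZH1 ran from -1.78 to -1.67. EZH1 (0.59 to 0.70), EED (0.66 to 0.78), SUZ12 (-0.45 to -0.36) and RING1 (-0.34 to -0.30) kept their signs, while CBX2 ran from -0.0073 to 0.0085 and has no direction. Centring moved nothing, as the median of all genes was 0.00. Of the 7 genes, the other probe set rules could move RING1 alone (to -0.29 with its dimmer probe set). Neither bears on the stability of the rest. Quantile normalization could move little, since RMA had already made the distributions of the arrays alike. At 1.5-fold, 2 of the 7 genes were higher, and in the Polycomb and HP1 lists 5 genes were higher and 11 lower, with 4 HOX genes lower. Over all genes, 9.4% were at least 1.5-fold higher and 10.1% lower, and above the median level 13.7% and 15.3%. HOXC5, 1 of the 4 lower HOX genes, lay below the median level in both arrays, at 6.26 with p53 and 6.93 in the control. At 3-fold, 0 of the 7 were lower, 1 list gene was higher and 1 lower, and 1 HOX gene was higher and 0 lower. The share of all genes past 3-fold was not computed, so these 3-fold counts cannot be read as few or many. With the trend removed or with the offset, 1 HOX gene was at least 2-fold lower in place of 2. Counting the shared probe set as BMI1, chosen after the data were seen, gave 2 genes at least 2-fold lower and a median of -0.19. The shares at least 2-fold lower were 3.7% of all genes and 5.67% of those above the median level. A shift in a difference was read as a move when it passed 0.088. That is the spread of a single probe set, taken from 294 pairs of probe sets of a gene, and holds no variation between cultures. The pairs include probe sets that read nearly the same transcripts, such as the 2 of RING1, so 0.088 may be too small. By this rule, removing the trend moved EZH2 (to -1.02), SUZ12 (to -0.36) and EED (to 0.78). A count was read as moved when it changed by more than 1.5-fold, or to or from 0. No paired analysis was possible because each group has 1 array. CBX2 and CBX7 lie near the median level, where signal over background limits what can be read.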

Other observations

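The HP1 genes CBX1, CBX3 and CBX5 carry the same kind of chromodomain as the Polycomb CBX proteins but read another methyl mark of histone H3, that of constitutive heterochromatin. All 3 were lower with p53. CBX5 read 11.54 with p53 and 12.40 in the control (-0.86), CBX3 at 9.39 and 10.20 (-0.81) and CBX1 at 9.50 and 10.05 (-0.55), so that none reached 2-fold. Their median was -0.81, beside 0.00 for all measured genes. Of the 11103 genes above the median level, where all 3 lie, 5624 were below 0.

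The HOX genes, which set the body axis and are textbook targets of Polycomb silencing, differed in both directions. Of 39 HOX genes listed, 27 were measured by a probe set of their own. From the HOXA cluster only HOXA2 was measured, at 6.68 in both arrays, below the median level. Of the 27 measured HOX genes, 16 had a mean at or above that level. Equal values in both arrays were found for 12 of the 27, beside 35.3% of all measured genes. Of the 27, 3 reached 2-fold higher with p53 and 2 reached 2-fold lower, and the median was 0.00. For all measured genes the shares were 5.22% and 3.7%, and for those above the median level 7.7% and 5.67%. HOXC13 read 10.64 with p53 and 7.49 in the control, 8.88-fold higher, and its control value was close to the median level of 7.38. HOXC8 stood at 10.29 and 9.20, 2.13-fold higher, and HOXC10 at 8.79 and 7.73, 2.08-fold higher, though at 0.96, less than 2-fold, with an offset of 32. In the HOXB cluster HOXB2 stood at 10.22 and 11.53, 2.47-fold lower, HOXB4 at 8.84 and 9.87, 2.05-fold lower, and HOXB3 at 7.69 and 8.62, 1.90-fold lower. HOXB4 was at -0.95 with the trend on intensity removed. Histone marks at these genes were not measured here.

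Among markers of cell types, the keratin genes KRT8 (12.84 with p53 and 12.52 in the control) and KRT18 (12.47 and 12.78) were bright, as was VIM (12.92 and 13.07), while KRT19, EPCAM, CDH1 and NKX2-1 lay below the median level in both arrays. Of 4 measured haematopoietic markers, CD68 (11.01 and 11.40) was above that level, and the 3 measured endothelial markers were below it.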
